A study of Drosophila melanogaster with 4 samples.

Results

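The lysozyme genes LysB, LysC, LysD, LysE, LysS, LysP and LysX of Drosophila melanogaster were followed over 4 arrays of whole adult flies on a diet without yeast. Every probe set whose annotated symbol was 1 of these 7 was taken, which gave 7 probe sets of the 13966 on the array that are not controls, or 7 of 10844 named genes. Each of the 7 was annotated to 1 gene and none to several. The arrays hold a single baseline group of adults, with 1 total RNA sample per array (n = 4) and no contrast group. These animals ate the standard diet as larvae until early in the third instar. They were then washed, put on the same diet lacking yeast, and kept on it until 4 days after emergence, when they were killed just before a refeeding time course. The samples are called libraries 1, 2, 3 and 4 here and carry the labelled hours -4, -3, -2 and -1, an order the labels assign for change-point analysis. The sources used here give neither genotype nor sex nor how many flies or cultures each sample holds, so p-values measure only the spread between these 4 samples, which may be technical. Refed flies are not analysed here.

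Lysozymes cut the peptidoglycan of bacterial cell walls. In most animals they serve defence, whereas in the fly the Lys genes are known mainly as digestive genes: bacteria are part of the food, and the enzymes release nutrients from them in the gut. LysB, LysC, LysD and LysE form a group of near-identical sequences known from the midgut of larvae and adults. LysS has been described from the larval digestive tract, LysP from the adult salivary gland and LysX from the gut around metamorphosis. All 7 lie on chromosome arm 3L in the RefSeq annotation of the Release 6 plus ISO1 MT assembly, in the order LysX, LysB, LysC, LysD, LysE, LysP and LysS. That annotation lists LysC as a pseudogene and the other members as protein-coding. LysB to LysS, 6 of the 7, lie inside the annotated span of mwh, a gene of wing hair polarity.

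The array names the probe sets of LysB, LysC, LysD and LysE with the suffix that marks a sequence family, meaning that their probes can match related transcripts. The signal of these 4 probe sets can therefore be shared between the near-identical genes, and each is called by its annotated gene below with that limit. The LysS, LysP and LysX probe sets carry the plain suffix. A set of 3 control probe sets that are also called LysX on the array targets a bacterial lysine gene, is no member, and read from 12.3 to 91.6. Normalized intensities were measured on a linear scale, and levels of different probe sets are not compared with each other.

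All 28 values of the members, from 206 to 1044, lay above the 133 reached by the brightest of 23 negative control probe sets in any library. Median intensities of the libraries ran from 112 to 113. Libraries 3 and 4 stood apart from libraries 1 and 2 in their controls: the 9 added hybridisation controls averaged 1.59 and 1.29 times library 1 in libraries 3 and 4, against 0.927 times in library 2. The log2 ratio of 3' to 5' probe sets, as a mean over 3 control transcripts, was at 1.40 or above in libraries 3 and 4, against 1.14 or below in the other pair. Library 3 also differed in tissue markers. Its summed intensity of 8 measured markers of the male accessory gland and duct was 1961, against 379 to 416 in the other libraries, with 0 of the 8 above 133 in all libraries. That of 5 testis markers was 2353, against 978 to 1042. The 7 measured midgut markers summed to 10655 in library 3, against 11833 to 13686 in the others. Most of that sum came from alphaTry (2541 in library 3, against 3071 to 3625) and betaTry (5079, against 5283 to 6686). Jon65Aiii and Mal-A1 were also lowest in library 3, while LManV was highest there (355, against 307 to 346). Jon99Ci was lowest in library 4, and Jon25Bi, the dimmest marker at 9.61 to 14.9, was lowest in library 1. Of the 7 midgut markers 5 lay above 133 in all libraries, Jon99Ci and Jon25Bi not among them. For 5 fat body markers the sum was 1114 in library 3 and 1289 in library 4. Library 1 had 1468 for these markers and library 2 had 1558. The part of these shifts in the results below was not tested. In whole flies of unstated sex, fewer cells of a type, less RNA per cell and another mix of males and females cannot be told apart.

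The first question was how steady each lysozyme gene was between baseline samples. The midgut probe set LysB had intensities of 966, 977, 939 and 1044 in libraries 1 to 4, or 981 ± 44.4 (SD, n = 4). Library 4 was the highest and library 3 the lowest, and the highest value was 1.11 times the lowest. LysC had 387, 409, 413 and 451, or 415 ± 26.7 (SD, n = 4), again with library 4 on top but with library 1 at the bottom.

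LysD and LysE were the steadiest members. LysD had 247, 237, 254 and 242 in libraries 1 to 4, or 245 ± 7.22 (SD, n = 4). LysE had 263, 255, 260 and 253, or 258 ± 4.55 (SD, n = 4). Their coefficients of variation of 2.94% and 1.77% were below the median of 5.24% over the 8379 probe sets bright enough to be tested. The LysE values differed by no more than a factor of 1.04 between any pair of libraries.

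LysS, from the larval digestive tract, had 464, 503, 462 and 519, or 487 ± 28.7 (SD, n = 4). Libraries 2 and 4 were the high ones, and libraries 1 and 3 lay close together below them. LysP, the salivary gland member, had 919 in library 1 and 756, 769 and 714 in libraries 2, 3 and 4, or 790 ± 89.5 (SD, n = 4). Library 1 stood alone at the top of LysP, and the others were close together. LysX, the gene known from the metamorphosing gut, had 287, 250, 206 and 269, or 253 ± 34.8 (SD, n = 4). Library 3 was its lowest, and the highest value, in library 1, was 1.39 times that.

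**Figure D1:**
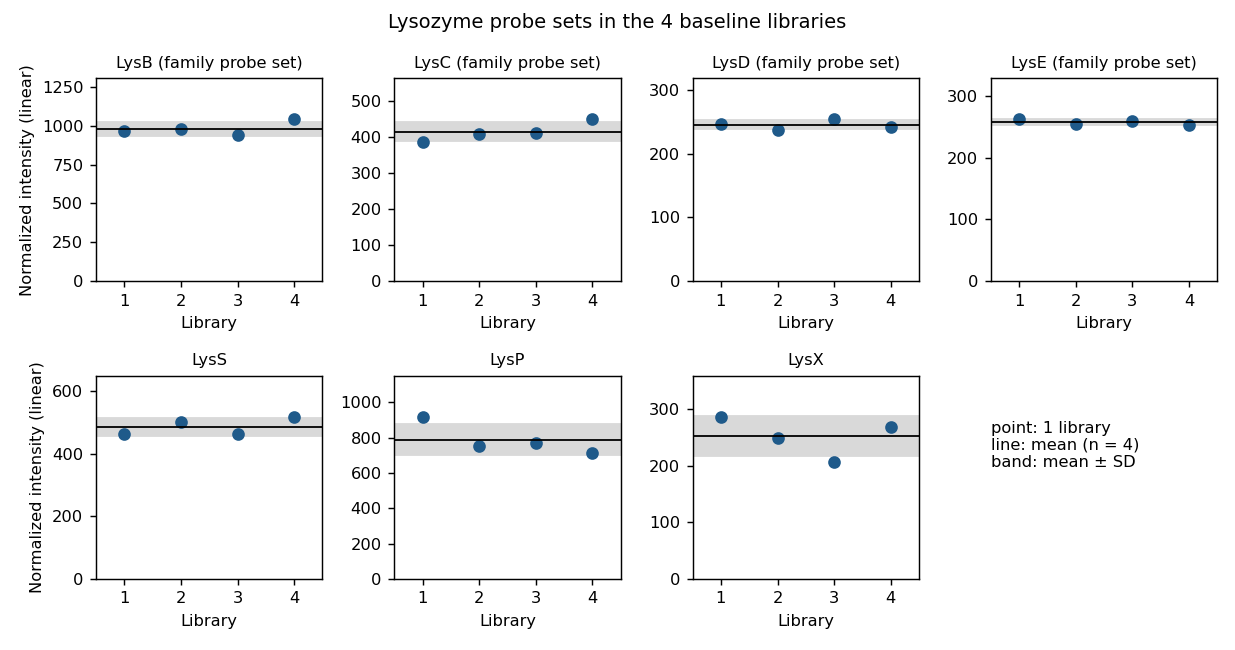
Normalized intensity (linear scale, axis from 0) of the 7 lysozyme probe sets in libraries 1 to 4; points are single libraries, lines the mean and grey bands the mean ± SD (n = 4). LysD and LysE are flat, LysP has its highest value of 919 in library 1, and LysX its lowest of 206 in library 3.

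Each spread was then set against the spread expected at that intensity, with a limma-based test of the variance over the 4 libraries. The expected SD of log2 intensity is the one limma's prior gives for probe sets of like intensity, and the SD ratio is the observed SD over the expected. No lysozyme probe set passed at an adjusted p under 0.05, 0 of 7, against 0.274% of all tested probe sets. At an unadjusted p under 0.05, LysX alone of the 7 passed, against 5.53% of all tested probe sets. LysX had an SD ratio of 2.52 (SD of log2 0.21; unadjusted p = 0.0194 and adjusted p = 0.709 in the limma-based test), and one of 1.24 without library 3. For comparison, the smallest SD ratio among called probe sets was 5.75.

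LysP followed with an SD ratio of 1.55 (adjusted p = 0.981 in the limma-based test), and had one of 0.503 without library 1. The other 5 members had ratios under 1: 0.996 for LysC, 0.883 for LysS, 0.654 for LysB, 0.519 for LysD and 0.309 for LysE. After quantile normalization LysC, LysS and LysB had ratios of 1.46, 1.40 and 1.03, and of the 7 only LysD and LysE stayed under 1 in that setting. Without library 4 the ratio was 0.640 for LysC and 0.337 for LysB. LysE varied so little that only 3.88% of tested probe sets had a lower ratio, while 97.3% had a lower ratio than LysX. The median ratio of the 7 was 0.883, beside 0.927 over all tested probe sets and 0.952 over the 43 tested probe sets with the family suffix. After quantile normalization the median of the 7 was 1.37, beside 0.925 over all tested probe sets.

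**Figure D2:**
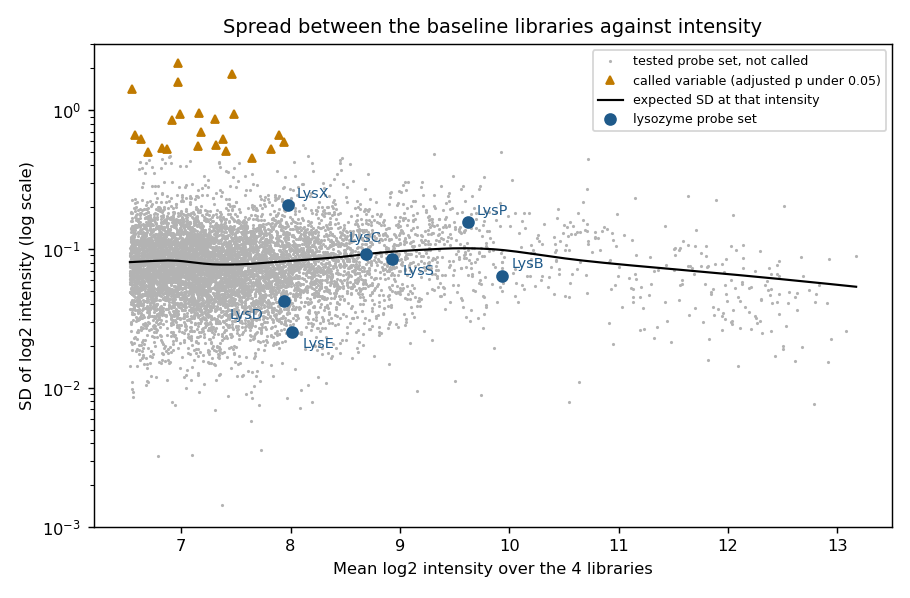
SD of log2 intensity over the 4 libraries (log axis) against mean log2 intensity for all 8379 tested probe sets (grey), those called variable (triangles) and the 7 lysozyme probe sets (blue), with the expected SD as a line. LysX (SD 0.21) and LysP (SD 0.16) lie above the line, LysC and LysS near it, and LysB, LysD and LysE below it.

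A second question was whether any 1 library stood apart from the other 3 in these genes. Over the 28 comparisons of 1 member in 1 library, 0 passed in limma after adjustment and 2 had an unadjusted p under 0.05. The share of all tested probe sets called was 0% for library 1, 0.107% for library 2, 0.704% for library 3 (0.561% higher and 0.143% lower) and 0.0119% for library 4. At an unadjusted p under 0.05 it was 2.05%, 2.83%, 6.46% and 8.63% for libraries 1 to 4. The single library on one side has no spread of its own here and takes that of the other 3.

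The comparison with the smallest p was LysX in library 3. Its intensity was 206 there, against 250 to 287 in the other libraries, so library 3 lay outside their range. The log2 difference was -0.38 ± 0.10 (SE, 1 library against 3), a fold of 0.769 with a 95% interval from 0.660 to 0.895. The unadjusted p was 0.00338 and the adjusted p 0.272 in limma. With library 4 left out, LysX was called lower in library 3 than in libraries 1 and 2, with a log2 difference of -0.38 ± 0.08 (SE, 1 library against 2; limma adjusted p = 0.00349). In that setting 4.01% of tested probe sets were called lower and 2.01% higher in library 3, and the spread came only from libraries 1 and 2, the closest pair of the 4 (Pearson r = 0.994 across tested probe sets, which are not independent replicates). Library 3 is the library with the raised male markers and lower summed midgut markers given above, although not every midgut marker was lowest there. Any part of these shifts in the LysX value was not tested.

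The other comparison was LysP in library 1, at 919 against 714 to 769. The log2 difference was 0.30 ± 0.12 (SE, 1 library against 3), a fold of 1.23 with a 95% interval from 1.03 to 1.48. The unadjusted p was 0.0269 and the adjusted p 0.9998 in limma, so LysP did not pass. LysX in library 1, at 287 against 206 to 269, had a log2 difference of 0.26 ± 0.14 (SE, 1 library against 3; limma adjusted p = 0.9998), and one of 0.15 without library 3. Libraries 1 and 4 were thus on opposite sides for LysP, which had 714 in library 4 against 756 to 919 in the others.

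The near-identical midgut genes had small differences in each library, and none passed. LysC in library 4, at 451 against 387 to 413, had the largest difference among them, a log2 difference of 0.16 ± 0.09 (SE, 1 library against 3; limma adjusted p = 0.598). LysB in library 4, at 1044 against 939 to 977, had 0.12 ± 0.09 (SE, 1 library against 3; limma adjusted p = 0.693). The 95% intervals of the 4 LysE comparisons lay between folds of 0.859 and 1.19. For LysX the interval was wider, reaching a fold of 1.52 in library 4.

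**Figure D3:**
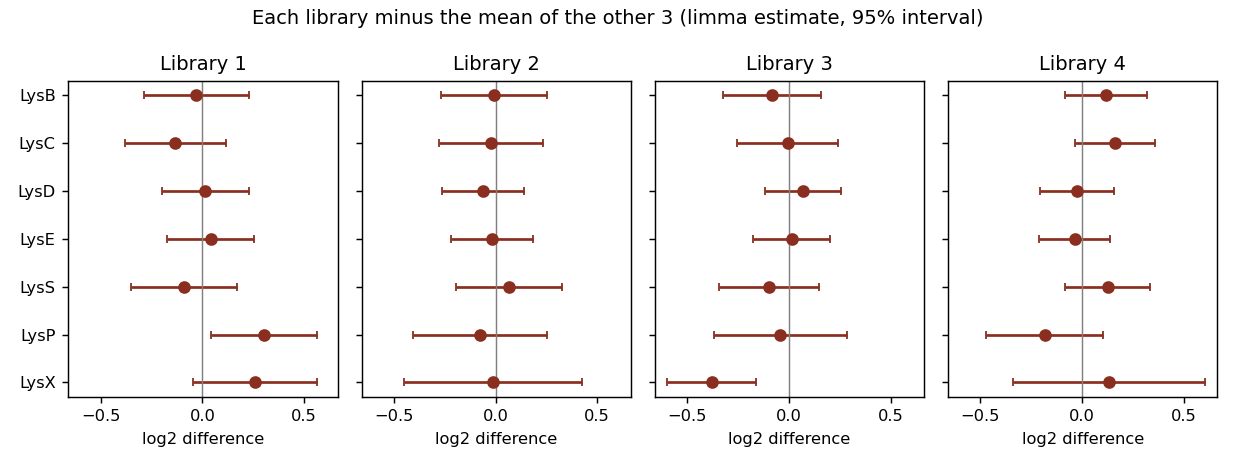
Log2 difference of each library from the mean of the other 3 for the 7 lysozyme genes, with limma's unadjusted 95% interval. LysX in library 3 (-0.38) and LysP in library 1 (0.30) are the only ones of the 28 whose interval leaves out 0, and neither passed after adjustment.

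Over the labelled hours -4 to -1, 0 of 7 members had a slope that passed in limma, as was the case for 0% of all tested probe sets rising and 0% falling. At an unadjusted p under 0.05, 1 member passed, against 11.6% of all tested probe sets. That member was LysP, with a slope of -0.11 ± 0.04 log2 units per labelled hour (SE, n = 4; limma unadjusted p = 0.0198, adjusted p = 0.375). Without library 1 its slope was -0.04. LysC had the largest positive slope, 0.07 ± 0.03 (SE, n = 4; limma adjusted p = 0.462), and had its lowest value in library 1 and its highest in library 4. The slopes of LysX, LysB, LysD, LysE and LysS ran from -0.06 to 0.04, and 3 of the 7 slopes were negative.

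Setting libraries 3 and 4 against libraries 1 and 2, the split seen in the control probe sets, gave 0 of 7 called members and 0 with an unadjusted p under 0.05 in limma. Of all tested probe sets 0.0239% were called higher and 0.107% lower, and 12.3% had an unadjusted p under 0.05. LysX averaged 238 in libraries 3 and 4, against 269 in libraries 1 and 2. LysP averaged 742 in libraries 3 and 4, against 838 in libraries 1 and 2. LysC averaged 432 in libraries 3 and 4, against 398 in libraries 1 and 2. The log2 differences were -0.19 ± 0.14 for LysX, -0.17 ± 0.10 for LysP and 0.12 ± 0.08 for LysC (SE, 2 libraries against 2).

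The members did not share 1 pattern over the libraries. Library 4 was the highest for LysB, LysC and LysS, library 1 for LysX, LysE and LysP, and library 3 for LysD. Likeness was measured as the root mean square distance between log2 deviations from each probe set's mean over the 4 libraries, where 0 is an identical profile. LysD and LysE lay 0.03 apart, and LysB and LysS 0.04 apart. LysB and LysC, both of the midgut group, lay 0.05 apart. These are short distances because the profiles are flat: 5.50% of tested probe sets were closer to LysD than LysE was, and 4.06% closer to LysS than LysB was. LysP and LysC were the farthest pair, at 0.21.

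Outside the family, the genes with the profile most like that of a member were found the same way over these 4 libraries. For LysX they were CG15043 at a distance of 0.016, with 385, 339, 272 and 357 in libraries 1 to 4, Acbp5, an acyl-CoA binding protein gene, at 0.045, and Rcd6 at 0.046. All 3 had their lowest value in library 3, and only 4 probe sets lay within 0.05 of LysX. For LysP they were CG9649 at 0.016, the adenylate kinase gene Ak1 at 0.017 and wbl, which encodes a protein of the endoplasmic reticulum, at 0.020, and 46 probe sets lay within 0.05.

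The flat profiles of the other members were common on the array. Within 0.05 lay 1328 probe sets for LysB, 636 for LysC, 800 for LysS, 1839 for LysD and 2346 for LysE. The nearest genes were CG34347, the serotonin receptor gene 5-HT1B and CG11191 for LysB, and CG34109, CG1792 and the tetraspanin gene Tsp47F for LysC. For LysD they were CG32486, CG34456 and the axon guidance receptor gene robo1, and for LysE the cuticle gene Cpr64Ab, CG13018 and the glutathione S-transferase gene GstE3. For LysS they were CG32772, del and btv.

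The tested neighbours of the cluster had SD ratios from 0.559 to 1.03. Between LysX and LysS the annotation places 4 genes that are no lysozymes, and 3 of them were measured. Aplip1, a scaffold gene of the JNK pathway, had 181, 170, 173 and 161 in libraries 1 to 4 (SD ratio 0.892). The host gene mwh had 162, 152, 157 and 161 (SD ratio 0.559), and CG9119 had 311, 286, 282 and 282 (SD ratio 0.816). Aplip1 had its lowest value in library 4 and mwh in library 2, while CG9119 read 282 in libraries 3 and 4 alike. CG13912, close to LysX on its other side, had 273, 260, 272 and 240 (SD ratio 1.03), and 0 of the 4 tested neighbours was called variable. CG33966, beyond LysS, was dim, at 45.8 to 51.7, and was not tested.

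The fly has further lysozyme-like genes outside this cluster, of the c type and of the invertebrate i type. Of 11 listed, 10 were measured and 9 tested, and 0 of the 9 passed for variability, for the labelled hour or for any library. Their median SD ratio was 0.886, beside 0.883 for the 7 members and 0.927 for all tested probe sets. The c-type genes CG7798 (256 to 277), CG16799 (303 to 334), CG11159 (159 to 182), CG16756 (174 to 184) and CG8492 (83.6 to 98.3) had SD ratios from 0.455 to 1.27. Of the i-type genes, CG6426 had the largest SD ratio of the list, 1.63, with 178 and 175 in the last pair of libraries, against 206 and 205 in the first (adjusted p = 0.980 in the limma-based test). CG6421 (190 to 212), CG6435 (112 to 124) and CG14823 (114 to 128) were steadier, and CG6429, at 59.3 to 66.1, was below the filter. All values of CG8492, CG6435, CG14823 and CG6429 lay below the 133 reached by the brightest negative control in any library.

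Genes listed here as digestive enzymes, many of which act beside lysozymes in the gut, had larger median SD ratios than the lysozyme genes. Of 22 tested trypsin and Jonah protease genes, 16 had an SD ratio over 1, with a median of 1.44. Of 11 tested carbohydrate enzyme genes, LManV and LManVI among them, 10 had a ratio over 1, with a median of 1.27. Of the 7 lysozyme genes 2 had a ratio over 1, and of all tested probe sets 43.9%. After quantile normalization the medians were 1.40 for each enzyme list and 1.37 for the lysozyme genes, 5 of which were then over 1. Without library 4, 6 of the 11 carbohydrate enzyme genes were over 1. The difference between the lists was not tested. In the variance test 0 genes of either list passed. In library 3 the midgut protease gene Jon74E was higher, at 250 against 134 to 153 (log2 difference 0.83 ± 0.09, SE, 1 library against 3). The amylase gene Amy-d was lower there, at 244 against 361 to 446 (-0.70 ± 0.12), as was the maltase gene Mal-A1, at 264 against 387 to 406 (-0.58 ± 0.09). Their limma adjusted p-values were 0.00229 for Jon74E, 0.0332 for Amy-d and 0.0218 for Mal-A1. Each of the 3 lost its call when no intensity filter was used, a setting in which probe sets at the floor in all libraries also entered the fit. LysX, with -0.38 in the same library, did not pass in the first place. Genes near the middle of their lists were Jon99Ci, with 103 to 124 and an SD ratio of 1.45, and Mal-A3, with 167 to 192 and 1.27. All values of Jon99Ci lay below the 133 reached by the brightest negative control in any library.

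Peptidoglycan recognition proteins sense or cut the same substrate in immunity. Of the genes for peptidoglycan recognition proteins and their regulators, 4 were measured and tested. The amidase genes PGRP-SC2 (390 to 424) and PGRP-LB (360 to 372), the receptor gene PGRP-LE (127 to 143) and the regulator gene pirk (194 to 218) had SD ratios of 0.633, 0.283, 0.873 and 1.0. The median of the 4 was 0.753, and 0.984 after quantile normalization. Antimicrobial peptide genes, which fat body cells express in response to infection, had a median SD ratio of 2.58 over 11 tested genes, and 9 of the 11 were over 1. Without library 1 the median was 0.737 over the 9 genes then tested, 4 of them over 1, and with the intensity filter at the 60th percentile it was 1.65 over 9 genes. BomS4 had the largest, 5.24, with 73.1 and 80.0 in the last pair of libraries, against 121 and 132 in the first, and did not pass (adjusted p = 0.0611 in the limma-based test). All its values lay below the 133 reached by the brightest negative control in any library. BomS4 fell below the filter without library 1 and with the filter at the 60th percentile. The medians in those settings are thus not over the same genes as the 2.58. BomS2 (77.2 to 140) exceeded 133 only in library 1. BomBc3 lay at the median, with 173, 133, 126 and 151, and had a ratio of 1.501 without library 1. At an unadjusted p under 0.05, 6 of the 11 passed in the limma-based test, against 1 of the 7 lysozyme genes and 5.53% of all tested probe sets. These 6 were all Bomanin genes, immune-induced short peptides: BomS4, BomS2, BomS6, BomT2, BomBc2 and BomBc3. The remaining tested Bomanin gene, BomS5 (310 to 355), had an SD ratio of 1.07 and did not pass. The classical antimicrobial peptide genes Def, Mtk, DptB and Drs had SD ratios of 1.66, 1.16, 0.599 and 0.329 and did not pass. A further 9 listed symbols, AttA and CecA1 among them, had no single-gene probe set, so the list median rests largely on Bomanin genes.

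**Figure D4:**
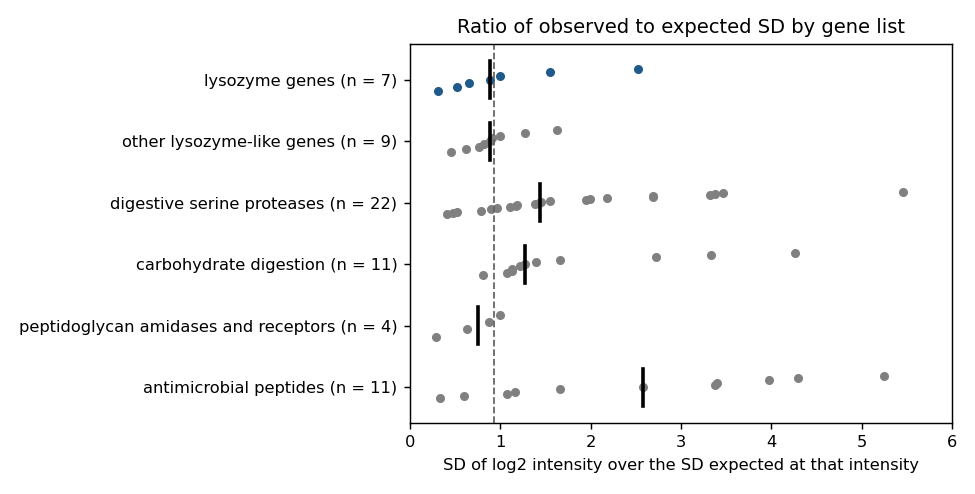
Ratio of the observed SD of log2 intensity to the SD expected at that intensity, for the tested genes of 6 lists; points are genes, bars list medians, and the dashed line the median of 0.927 over all tested probe sets. The lysozyme genes have a median of 0.883 (1.37 after quantile normalization) and reach 2.52. The antimicrobial peptide list has a median of 2.58 and reaches 5.24. Without library 1 its median is 0.737 over the 9 genes then tested, BomS4 not among them. The list joins Bomanin genes with Def (1.66), Mtk (1.16), DptB (0.599) and Drs (0.329).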

How the data were processed

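Whole-animal total RNA of 4 baseline samples was hybridised to 1 Affymetrix array each. The table holds linear intensities that the authors normalized with dChip through invariant probes, per the labels; its version, background model and detection calls were not stated there. Such scaling can hide a shift shared by most transcripts. The number of arrays, 4, limits the precision.

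After 44 control probe sets were set aside, 13966 remained. Values below the 20th percentile (57.1) were set to that floor, and after log2 transformation the 8379 probe sets with a mean above the 40th percentile of means were tested. No member lay near that floor. Probe sets were named from the platform annotation, and 12394 of 12443 with 1 gene were updated through RefSeq gene identifiers. RefSeq positions served only for gene order and neighbours, and no coordinates or sequences are printed.

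limma 3.58.1 (statmod 1.5.0, R 4.3.3) gave 3 main fits over all tested probe sets. They were the variance against the robust, intensity-trended prior (squeezeVar, 7.26 prior degrees of freedom, upper tail of F), each library against the other 3, and the slope over the labelled hour. The last 2 were two-sided, with Benjamini-Hochberg adjustment at 0.05. Libraries 3 and 4 were compared with libraries 1 and 2 in the same way. So was library 3 with libraries 1 and 2 when library 4 was left out. The fits were tested on simulated data.

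Members, lists and tests were chosen with earlier results of these data known. Genes named are all members, the 3 nearest profiles per member, all lysozyme-like genes, and in each list the largest and median SD ratio and any gene called. Neighbours were named by position, and some other genes because a count or list was small. Listed symbols without a single-gene probe set, 18 in all, were not analysed here. Alternatives changed the floor, filter, scaling, prior, coding of the hour or libraries used.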

Additional observations from a re-analysis of the deposited data

Results flagged for a closer look

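Of 65 genes examined, the 7 lysozyme genes among them, 3 had a single library whose gap to the nearest other value exceeded Dixon's 95% critical value, which chance gives in about 1 of 20 groups. Of these 3, 0 were lysozyme genes. Mal-B2, a maltase gene, was at 160 in library 2 against 139 to 141 in the others, the gap being 0.909 of the whole range. Mal-A1 was at 264 in library 3 against 387 to 406 (0.866 of the range), and Jon74E at 250 in library 3 against 134 to 153 (0.837 of the range). The last pair were already called in library 3 in the report, so their gaps are no separate evidence.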

How the results depend on the processing

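The count of lysozyme probe sets called stayed at 0 for variability and for the labelled hour under each alternative run. For 1 library against the others it ran from 0 to 1 when a replicate was left out: 1 without replicate 4 (LysX, lower in library 3), and 0 under every other alternative run. Of 176 values of members under alternatives, 175 kept their sign and their side of the adjusted p threshold. Many of these are SD ratios, which cannot change sign. None came near passing, with adjusted p-values of 0.440 or above in the limma-based test. The count also says nothing of whether an SD ratio lay over or under 1. The number of members with a ratio over 1 was 2, and from 1 to 5 under alternatives, with 5 after quantile normalization and 4 with a prior without trend. The log2 difference of LysX in library 3 ranged from -0.43 to -0.31. The -0.31 came with an offset added in place of the floor, which makes log2 differences smaller, and the next was -0.33 without replicate 1. The median coefficient of variation of the 7 was 5.88%, 8.58% after quantile normalization and 3.54% to 6.75% with a replicate left out. Over all probe sets, 23 were called variable, against 10 with a prior that was not robust, 12 with the filter at the 60th percentile, 40 after quantile normalization and 0 to 57 with a replicate left out. In library 3, 59 were called, against 129 without a filter, 24 with the filter at the 60th percentile and 52 to 504 with a replicate left out. For the labelled hour 0 were called, against 321 without replicate 3 and 22 without replicate 4. The list genes called in library 3 lost the call without a filter (adjusted p = 0.980 for Amy-d, 0.427 for Jon74E and 0.268 for Mal-A1). Without a filter only 11574 of the 13966 probe sets had any spread, because the others were set to the floor in all libraries, and these entered the fit too. Amy-d also lost the call with the filter at the 60th percentile and with the prior that was not robust, and Mal-A1 without replicate 1. No list gene had more than 1 tested probe set, so averaging probe sets changed nothing. No paired analysis was possible because the samples form a single group. How far the LysB to LysE probe sets share signal was not measured.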
